A study of Rattus norvegicus with 6 samples.

Results

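Bone morphogenetic protein (BMP) signaling was described in the left atrium of paced rats through 10 genes, the ligands Bmp2, Bmp4, Bmp6, Bmp7 and Bmp10, the receptors Bmpr1a and Bmpr2, and the target genes Id1, Id2 and Id3. They were taken by name, as the probe sets that carry 1 of these symbols alone, and are 10 of the 14506 genes that the array measures under a single symbol. Each had 1 probe set, so no choice between probe sets was needed. The arrays compare adult male Sprague-Dawley rats after rapid atrial pacing (RAP) at a cycle length of 70 ms with rats after control pacing (Con) at 140 ms, each for 48 hours and with 3 rats and 3 arrays per group. All rats carried an implanted atrial electrode and drank atenolol, a beta blocker that slows conduction to the ventricles, and the ventricular rate was alike in both groups. All received heparin before sacrifice, and the hearts were rinsed of blood. The control rats were paced too, so they do not stand for unpaced atria. Each RAP rat ran beside its control in an adjacent cage, and the arrays are from pairs with RNA of high quality. The sample labels give replicate numbers only. Rats of the same number were taken here as pairs 1 to 3, an assumption that the labels do not state. Values are log2 signals after robust multiarray averaging, and a gene was taken as expressed, after the study's methods, where 1 array or more exceeded a log2 signal of 5.

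BMPs are secreted dimers of the transforming growth factor-β superfamily. A dimer joins type I receptors such as Bmpr1a with type II receptors such as Bmpr2, and the activated type I kinase phosphorylates SMAD1, SMAD5 and SMAD9, which enter the nucleus with SMAD4. There they switch on the Id genes, whose proteins have a helix-loop-helix but no DNA-binding part, so that they tie up E proteins such as the product of Tcf3, and also Smad6 and Smad7, which shut the pathway off. In the heart the pathway is known for the making of valves and of the conduction system, for keeping vessels quiescent through Bmpr2, and for the atrial ligand Bmp10.

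To show the genes on which the pathway converges, the 250 bases before the annotated start of the Id genes are printed here 5′ to 3′ from RefSeq (build GRCr8), with each GTCT, the short letters that SMAD proteins bind, or its other-strand form AGAC, in capitals.
Id1, chr3:161671314-161671563, plus strand: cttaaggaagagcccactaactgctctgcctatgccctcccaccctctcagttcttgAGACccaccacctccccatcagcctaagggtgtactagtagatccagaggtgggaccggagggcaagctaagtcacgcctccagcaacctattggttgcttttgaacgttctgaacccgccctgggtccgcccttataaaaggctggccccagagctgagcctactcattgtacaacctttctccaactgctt
Id2, chr6:47470996-47471245, minus strand: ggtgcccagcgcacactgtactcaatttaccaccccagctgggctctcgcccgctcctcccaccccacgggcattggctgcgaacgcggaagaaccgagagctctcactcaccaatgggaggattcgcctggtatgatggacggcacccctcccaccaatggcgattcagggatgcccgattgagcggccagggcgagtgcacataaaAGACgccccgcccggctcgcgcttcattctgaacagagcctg
Id3, chr5:153656041-153656290, plus strand: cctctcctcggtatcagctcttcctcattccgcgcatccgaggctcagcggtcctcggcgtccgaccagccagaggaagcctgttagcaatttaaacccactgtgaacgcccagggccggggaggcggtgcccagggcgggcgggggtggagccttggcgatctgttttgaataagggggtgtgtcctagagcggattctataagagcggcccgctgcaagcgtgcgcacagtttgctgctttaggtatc
GTCT or AGAC was found 1 time before Id1, 1 time before Id2 and 0 times before Id3. It is common, as 84.0% of the 33469 promoter windows of this length hold it on either strand. GGCGCC, a GC-rich form of the letters that SMAD1 and SMAD5 bind, was found in none of the 3 windows (0 matches each) and in 8.69% of all windows. A match is not a bound site, and no match says only that these letters are not in this window. A promoter entry was matched for 8 of the 10 genes, all but Bmp2 and Bmp7.

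The labelled tissue was checked against cell type markers. The atrial genes Nppa and Myl7 were at log2 signals of 13.4 to 13.6 and 13.6 to 13.8 on the 6 arrays. The mean deviation of the 9 atrial genes measured from their own means ran from -0.30 in Con 2 to 0.40 in RAP 2. This atrial list differed by 0.31, 0.69 and -0.16 in pairs 1, 2 and 3. The array of Con 3 stood apart in other markers. Myl2, the ventricular myosin light chain, was at 8.60 there and at 4.28 to 4.89 on the other arrays. Of the other ventricular markers, Myl3, Myh7 and Irx4 were also highest in Con 3, but Hand1, Pln and Mylk3 were not. The mean deviation of the 7 ventricular markers from their own means over the arrays was 1.12 in Con 3 against -0.71 to 0.40 elsewhere. The 5 erythroid markers measured deviated by 2.06 in Con 3 and by -0.86 to -0.14 elsewhere. The macrophage list (11 genes) was lowest in RAP 2, at -0.69, and highest in Con 2, at 1.10. The fibroblast list (10 genes) differed by -0.47, -1.08 and 0.48 in pairs 1, 2 and 3. Of the 9 lists, that of epicardium and mesothelium (8 of 9 genes measured) was lower with RAP in all 3 pairs. Its differences were -1.33, -0.63 and -0.39. The adipocyte list (7 genes) was higher in all 3 pairs, at 0.37, 0.13 and 0.58. By the thresholds given below, 3 of 8 and 3 of 7 of their genes were called, against 6.39% of all genes. The endothelial list (11 of 12 genes measured), of cells in which Id1 and Id3 are well known, lay between -0.36 in Con 1 and 0.23 in Con 3. The part that these differences have in the values of the BMP genes was not tested, and the differences are also given without Con 3. In whole tissue, fewer cells of a type and less RNA per cell cannot be told apart.

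None of the BMP genes passed the study's thresholds (more than 1.3-fold, with p under 0.05 before adjustment) in the pair-blocked fit with limma, a linear model with moderated variances. Bmp10 was under a log2 signal of 5 on all 6 arrays, and the other 9 genes were tested. Of these 9, 0 were called, 0 had an unadjusted p under 0.05 and the methods' paired t-test called 0, where 6.39% of all 11237 genes were called. The smallest adjusted p among the 9 was 0.711, and over all genes it was 0.699. The median log2 change was 0.14 over the 9 genes and -0.01 over all genes. With 3 pairs the intervals stayed wide. On the fold scale, the 95% interval ran from 0.75 to 2.28 for Bmp4 and from 0.86 to 1.46 for Bmpr2, which had the largest and the smallest SE of the log2 difference among the 9. Differences within these intervals remain compatible with the values of the 3 pairs, so the absence of a call does not show that levels were equal.

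**Figure D1:**
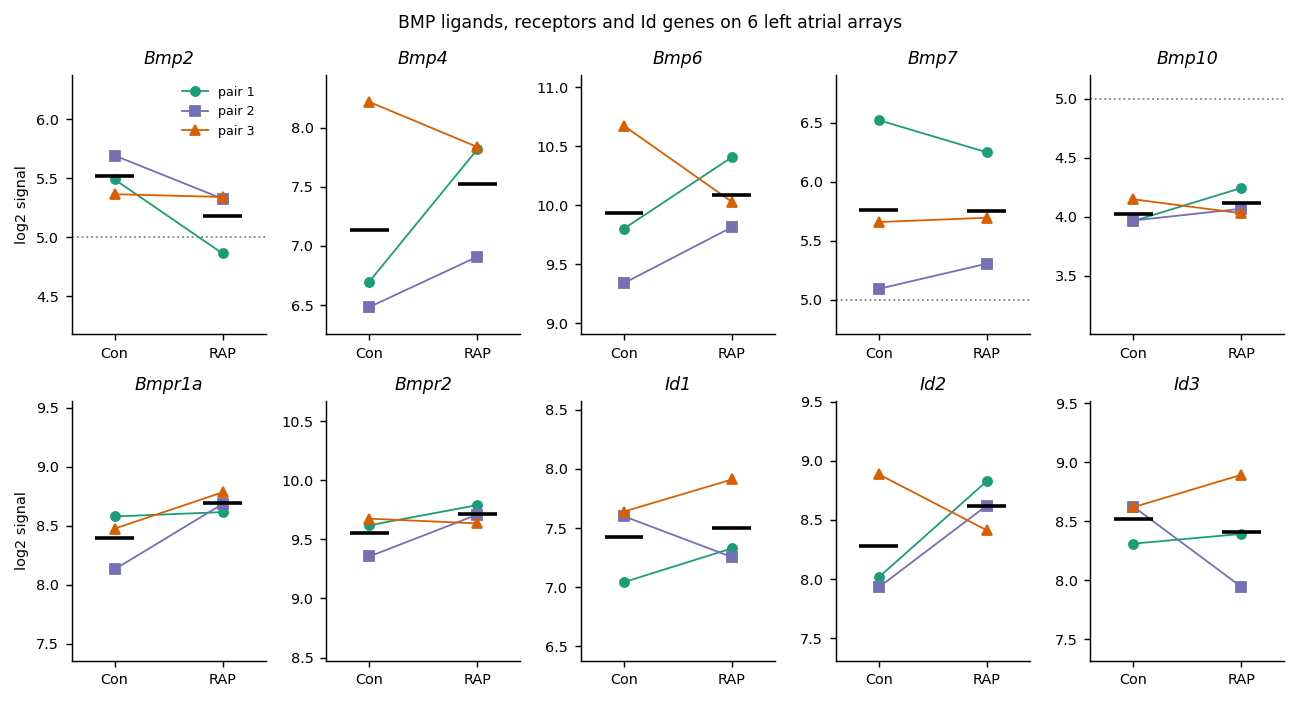
Log2 signal (vertical axis, each panel spanning 2.2 units) of the 10 BMP genes after control pacing (Con) and RAP, with a symbol and line per pair, black bars for the group means and a dotted line at the expression level of 5. Bmp4, Bmp6, Bmpr2 and Id2 run upward in pairs 1 and 2 and downward in pair 3, Bmpr2 by only 0.04. Bmp10 lies between 3.96 and 4.24 throughout.

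Bmp4, a ligand of heart development and endothelium, varied most among the ligands. Its log2 signal (probe set 10782891) was 6.70, 6.48 and 8.22 in Con 1, Con 2 and Con 3 and 7.82, 6.91 and 7.84 in RAP 1, RAP 2 and RAP 3. The groups overlapped, and the controls alone spanned a 3.33-fold range, set by Con 3. The mean difference was 0.39 (SE 0.31, adjusted p = 0.781 by limma), with 1.12, 0.43 and -0.38 in pairs 1, 2 and 3. The standard deviation (SD) over the 6 arrays, 0.72, was higher than that of 96.5% of genes. Bmp6, an endothelial ligand known for the control of iron through hepcidin, followed a similar order of arrays (probe set 10797949). It was at 9.80, 9.34 and 10.67 in the controls and at 10.41, 9.82 and 10.03 with RAP. Again Con 3 was the highest array, and the mean difference was 0.14 (SE 0.29, adjusted p = 0.91 by limma), with 0.60, 0.47 and -0.64 in the pairs.

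Bmp2, which patterns the atrioventricular canal and its cushions, was low on these arrays (probe set 10840138). Its log2 signal was 5.49, 5.69 and 5.37 in the controls and 4.86, 5.33 and 5.34 with RAP, with RAP 1 under the level of 5. The 3 RAP arrays lay under the 3 controls, though in pair 3 by only 0.02. Such a separation was found in 7.85% of all genes. The mean difference was -0.34 (SE 0.17, adjusted p = 0.711 by limma), and its fold interval of 0.58 to 1.07 reached little above 1. An exact permutation test of 3 against 3 arrays cannot give a two-sided p under 0.1.

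Bmp7, a ligand best known from kidney and epithelia, differed between the pairs and little within them (probe set 10852106). The controls were at 6.52, 5.09 and 5.66 and their RAP partners at 6.25, 5.31 and 5.70, so both rats of pair 1 were high and both of pair 2 low. The mean difference was -0.01 (SE 0.16), with an interval from -0.41 to 0.40. Bmp10, a ligand made by atrial cardiomyocytes, was at 3.96, 3.97 and 4.15 in the controls and at 4.24, 4.07 and 4.03 with RAP (probe set 10857064). All values were under the level of 5 and within 0.28 of each other. With no filter on dim probe sets its mean difference was 0.09. At this signal neither expression nor its absence is shown.

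Both receptors had a higher mean with RAP. Bmpr1a, the type I receptor also known as ALK3, was at 8.58, 8.13 and 8.48 in the controls and at 8.62, 8.68 and 8.78 with RAP (probe set 10790481). The RAP arrays lay above the controls and close together (SD 0.08 against 0.23), a separation found in 7.57% of all genes. The mean difference was 0.30 (SE 0.16, adjusted p = 0.718 by limma), positive in 3 of 3 pairs at 0.04, 0.55 and 0.31. Bmpr2, the type II receptor whose loss of function is known from pulmonary arterial hypertension, was the steadiest of the 9 tested genes (probe set 10923687). It was at 9.62, 9.36 and 9.68 in the controls and at 9.79, 9.71 and 9.64 with RAP. The groups overlapped through pair 3, and the mean difference was 0.16 (SE 0.15, adjusted p = 0.8 by limma).

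The 3 Id genes did not share one pattern, and none passed the thresholds. Id2, an Id gene of cardiomyocyte progenitors and of the conduction system, was at 8.02, 7.93 and 8.89 in the controls and at 8.83, 8.62 and 8.41 with RAP (probe set 10889379). As for Bmp4 and Bmp6, Con 3 was the highest array. The mean difference was 0.34 (SE 0.29, adjusted p = 0.792 by limma), with 0.81, 0.69 and -0.47 in the pairs. Id1, a direct readout of BMP receptors in endothelium, was at 7.04, 7.60 and 7.64 in the controls and at 7.33, 7.25 and 7.91 with RAP (probe set 10840890). Its mean difference was 0.07 (SE 0.18), with 0.29, -0.35 and 0.27 in the pairs. Id3, which overlaps with Id1 in function in vessels, was at 8.31, 8.62 and 8.62 in the controls and at 8.39, 7.94 and 8.89 with RAP (probe set 10872972). Its mean difference was -0.11 (SE 0.23), with 0.08, -0.68 and 0.27 in the pairs. Id1 and Id3 thus had the same signs, lower with RAP in pair 2 and higher in pairs 1 and 3, while Id2 was lower with RAP in pair 3 and higher in pairs 1 and 2.

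**Figure D2:**
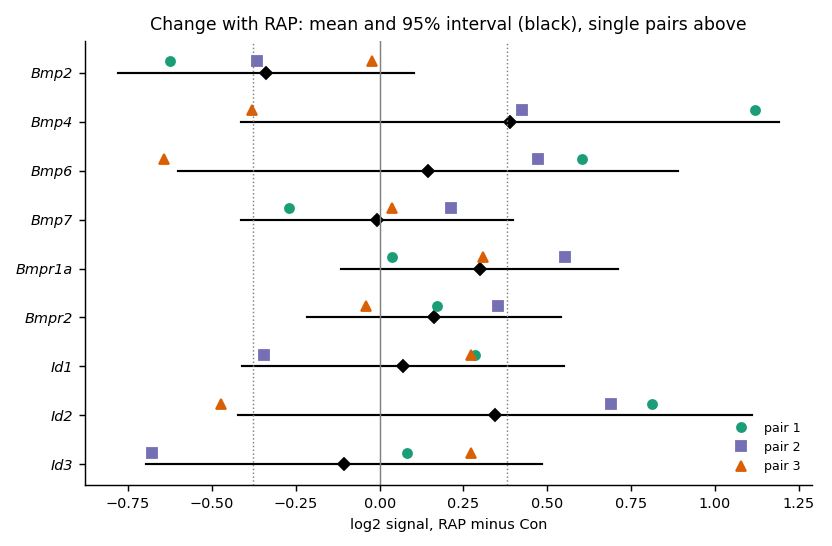
Change in log2 signal, RAP minus control, of the 9 BMP genes above the expression level, with the mean (diamond), its 95% interval from limma (line) and the single pairs (coloured symbols above each line), and dotted lines at a 1.3-fold change. Each interval includes 0, and pair 3 lies opposite to pairs 1 and 2 for Bmp4, Bmp6, Bmpr2 (at -0.04) and Id2.

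Correlations over the 6 arrays were computed for 36 pairs of genes, and those given were picked after their values were known, as a description of arrays that share pairs and groups. Bmp4 and Bmp6 varied together (Pearson r = 0.92, Spearman rho = 0.94), as did Bmp6 and Id2 (0.88 and 0.94) and Bmp4 and Id2 (0.82 and 0.83). Without the 2 arrays farthest from the median of the first gene of each pair of genes, Con 2 and Con 3 in all 3 cases, the Pearson r were 0.82, 0.70 and 0.59. Bmpr2 had a Pearson r of 0.80 with Id2, 0.75 with Bmp6 and 0.80 with Bmpr1a, the last with a Spearman rho of 0.49. With 2 arrays left out in the same way, these r were 0.75, 0.75 and 0.37. Bmp2 ran the other way, with a Pearson r of -0.86 with Bmpr2 (rho -0.94), -0.76 with Id2 and -0.67 with Bmp6. Without RAP 1 and Con 2, the arrays farthest for Bmp2, these r were -0.71, -0.76 and -0.25. Id1 and Id3 varied with each other (0.83 and 0.89, and 0.90 without RAP 3 and Con 1). Id2 had a Pearson r of 0.14 with Id1 and of -0.12 with Id3. Id4, the remaining member of the Id family, had a Pearson r of 0.97 with Id2, 0.02 with Id1 and -0.30 with Id3.

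The genes were also set beside the means of 9 cell type marker lists. Id2 had a Pearson r of 0.80 with the mean of the ventricular markers, 0.68 with the atrial and 0.64 with the erythroid ones. It was -0.85 with macrophage and -0.86 with fibroblast markers. Bmp6 had 0.69, 0.36, 0.79, -0.71 and -0.62 with the same lists. For Id1 the highest coefficients were 0.89 with the adipocyte and 0.83 with the endothelial markers. For Id3 they were 0.66 with adipocyte, 0.56 with fibroblast, 0.52 with macrophage and 0.50 with endothelial markers, and -0.76 with atrial ones. The gene most like Id1 among the other 11236 was Esam, an adhesion protein of endothelial cells (Pearson r = 0.997, Spearman rho = 0.94). Esam is itself in the endothelial list, so its coefficient and that of the list are not separate observations. For Bmp4 it was Akap13 (0.99 and 1), for Bmp6 Tmem204 (0.996 and 0.94), for Bmp7 Pnoc (0.99 and 1), and for Bmpr2 Hspa4l (0.99 and 1). Bmpr1a was nearest to Rnf6 (0.99 and 0.94), Id2 to Pakap (0.98 and 0.94), Id3 to Prps2 (0.996 and 0.94) and Bmp2 to Zbed4 (0.98 and 0.83). Each of these genes is the one with the highest of 11236 coefficients over 6 arrays.

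**Figure D3:**
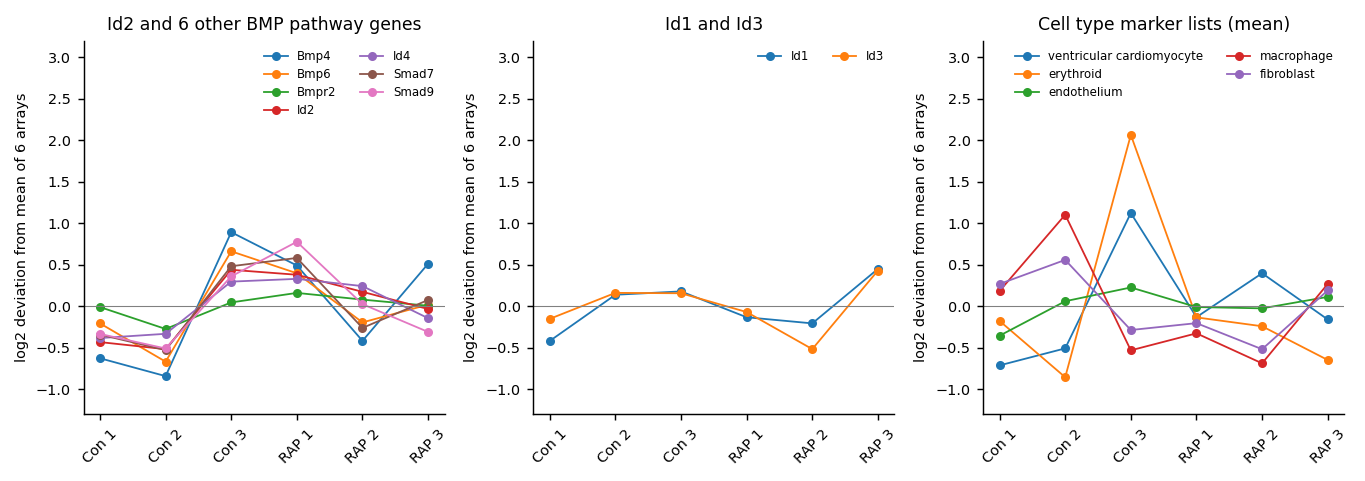
Log2 deviation from the mean over the 6 arrays (vertical axis) for Id2 and 6 other BMP pathway genes, for Id1 and Id3, and for the means of 5 cell type marker lists, by array (horizontal axis), with lines that only help to follow a gene. Con 3 lies above Con 1 and Con 2 for every gene of the first panel, and the third panel shows the erythroid mean at 2.06 and the ventricular mean at 1.12 in Con 3. The genes of the first panel were picked after their values were seen.

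Several genes differed one way in pairs 1 and 2 and the other way in pair 3. Of the 9 tested, Bmp4, Bmp6, Bmpr2 and Id2 were higher with RAP in pairs 1 and 2 and lower in pair 3, as were 19.4% of all genes. Leaving out pair 3 gave 4 calls among the 9, with Id2 at 0.75 (SE 0.14), Bmp4 at 0.77 (SE 0.22), Bmp6 at 0.54 (SE 0.14) and Bmp2 at -0.50 (SE 0.15). The smallest adjusted p of these was 0.128, and 2497 of all 11162 genes tested were called in the same fit. With only Con 3 left out and no pairing, Id2 (0.65, SE 0.16) and Bmp4 (0.93, SE 0.31) were called, among 1731 of 11202 genes. In that fit the differences not called were 0.51 for Bmp6, -0.41 for Bmp2, -0.06 for Bmp7, 0.34 for Bmpr1a, 0.22 for Bmpr2, 0.18 for Id1 and -0.06 for Id3. With arrays weighted by their residual spread (limma's array weights), the same 4 genes as without pair 3 were called. They were among 2650 of 11237 genes, with Id2 at 0.73, Bmp4 at 0.96, Bmp6 at 0.52 and Bmp2 at -0.56. The adjusted p was then 0.0389 for Id2, 0.0365 for Bmp4, 0.068 for Bmp6 and 0.0343 for Bmp2, and 1884 of all genes had an adjusted p under 0.05. The weights were estimated from the same arrays and then taken as known, so these adjusted p are no independent evidence. Without pair 1 the difference was -0.08 for Bmp6, 0.02 for Bmp4 and 0.11 for Id2. None of the 9 genes was called without pair 1 (0 of 9, against 161 of 11109 genes). The same held without pair 2 (0 of 9, against 378 of 11113 genes). Con 3 is the array with the ventricular and erythroid markers named above, and their part in these values was not tested.

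Of 59 other genes of the pathway and partners of Id proteins, 49 have a probe set of their own, 47 were above the level of 5 on some array and 2 passed the thresholds, both lower with RAP (0 higher). That is 4.26%, against the 6.39% of all genes, and the median change was -0.0048 over the 47. Chrd, which encodes chordin, an extracellular trap for BMP2 and BMP4, was at 7.36, 6.79 and 6.61 in the controls and at 6.56, 6.47 and 6.24 with RAP. All RAP arrays lay under the controls, as in 4 of the 47 genes and in 7.85% of all genes. It fell by 0.50 on the log2 scale (SE 0.16, adjusted p = 0.699 by limma), and by the methods' paired t-test it did not pass. Tcf3, which encodes E proteins that Id proteins bind, was at 8.17, 8.002 and 7.72 in the controls and at 7.66, 7.24 and 7.29 with RAP. It fell by 0.57 (SE 0.14, adjusted p = 0.699 by limma), with -0.50, -0.77 and -0.43 in the pairs. Tcf12, another E protein, differed by -0.30 (SE 0.14) and Tcf4 by 0.06 (SE 0.13), and neither passed. The epicardial list named above was lower and the adipocyte list higher with RAP in the same 3 pairs, and their part in the values of Chrd and Tcf3 was not tested.

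Of the 6 SMADs, 0 passed, against the 6.39% of all genes. Smad1, a direct substrate of the type I receptors, was at 8.42, 8.74 and 8.06 in the controls and at 7.91, 7.89 and 8.22 with RAP, a difference of -0.40 (SE 0.23). Smad5 was lower in 3 of 3 pairs (-0.41, -0.11 and -0.23) with a difference of -0.25 (SE 0.14). Its groups did not overlap, as was found with RAP lower in 7.85% of all genes. Smad9, a further substrate that dampens the pathway, was at 5.77, 5.60 and 6.47 and at 6.88, 6.13 and 5.80, a difference of 0.33 (SE 0.36). The SMADs that shut the pathway off are its own targets. Smad7 was at 7.37, 7.19 and 8.20 in the controls and at 8.30, 7.45 and 7.79 with RAP, a difference of 0.26 (SE 0.28). Smad6 was at 8.25, 7.78 and 9.07 in the controls and at 8.70, 8.09 and 8.07 with RAP, a difference of -0.08 (SE 0.32). In both, Con 3 was the highest control and pair 3 had the opposite sign to pairs 1 and 2. Over the 6 arrays Smad7 had a Pearson r of 0.93 with Bmp4 and 0.95 with Bmp6, and Smad6 of 0.78 and 0.95. With Id2, Id1 and Id3 the r were 0.87, 0.23 and 0.23 for Smad7 and 0.78, -0.03 and 0.04 for Smad6. These r were not computed with arrays left out.

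Among the other receptors, 0 of 8 passed, against the 6.39% of all genes. The type I receptor Acvr1 differed by 0.02 (SE 0.13) and the type II receptors Acvr2a and Acvr2b by 0.06 (SE 0.13) and 0.04 (SE 0.17). Acvrl1, the endothelial receptor of BMP9 and BMP10, was at 8.12, 8.42 and 7.96 in the controls and at 7.92, 7.88 and 8.33 with RAP, with overlapping groups. Bmpr1b, a further type I receptor, was above the level of 5 on 1 array, RAP 2, and differed by 0.36 (SE 0.17). Of the other 4 ligands tested and the 11 other targets, 0 and 0 passed, against the same 6.39%. Id4 was at 6.92, 6.97 and 7.60 in the controls and at 7.63, 7.54 and 7.15 with RAP, a difference of 0.28 (SE 0.27). Of the 11 other targets, 7 were higher with RAP in pairs 1 and 2 and lower in pair 3, and 16 of the 47 genes were, against the 19.4% of all genes. Without pair 3, 15 of the 47 were called (9 higher and 6 lower), among 2497 of 11162 genes. Without Con 3 alone, 5 of the 47 were called (1 higher and 4 lower), among 1731 of 11202 genes. Chrd and Tcf3 were among the lower ones in both. Without pair 1 the only call among the 47 was Hamp, the hepcidin gene, and Chrd and Tcf3 did not pass. Without pair 2, Chrd and Chrdl1 were called and Tcf3 did not pass.

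**Figure D4:**
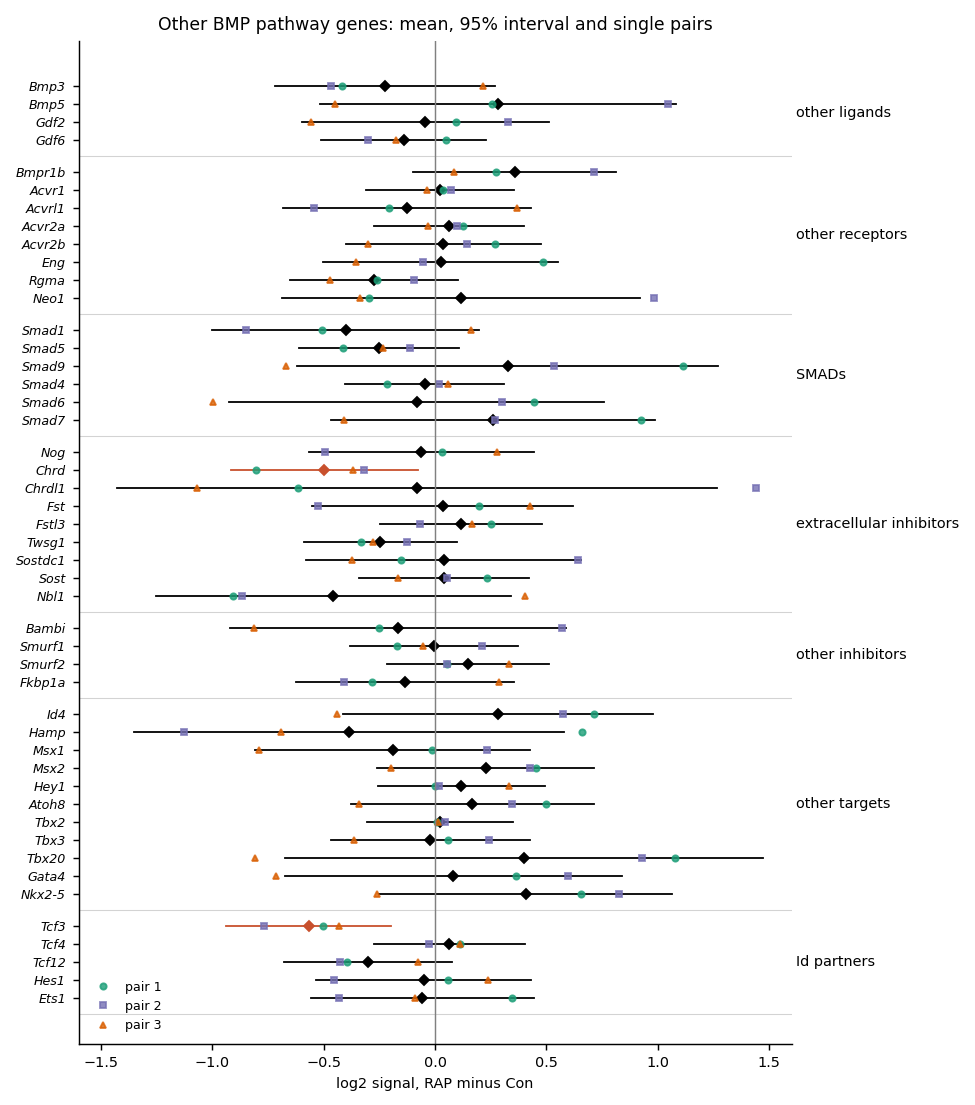
Change in log2 signal, RAP minus control (horizontal axis), of the 47 other BMP pathway genes above the expression level, in rows by role, with the mean (diamond), its 95% interval from limma (line) and the single pairs (coloured symbols). The called genes, Chrd at -0.50 and Tcf3 at -0.57, are drawn in orange-red, and the means of the other genes lie between -0.46 and 0.41.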

How the data were processed

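Left atrial RNA of 6 rats was hybridised to whole-transcript rat gene arrays, 1 array per rat. The authors deposited log2 values of 29214 probe sets after robust multiarray averaging in Partek, whose version and settings beyond the default are not given in the sources used here. No genome build was stated, so no probe set coordinates are given. Probe sets were kept where the log2 signal was above 5 in at least 1 array (19907). Of all probe sets, 15310 carry 1 symbol, 323 several and 13581 none. A gene was taken from its single-symbol probe set of highest mean, which left 11237 genes. Array medians were 5.82 to 5.85, and 62.6% to 63.8% of probe sets were above 5. The number of arrays limits the precision.

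Differences were tested with limma 3.58.1 in R 4.3.3 with the pair as a block, as the study's methods pair the rats, and p-values were adjusted by Benjamini-Hochberg over all 11237 genes. The deviations of the arrays of a pair from their group means correlated at 0.22, -0.24 and -0.32. By this measure the arrays of a pair were not alike in pairs 2 and 3, where the values were negative. The paper reports clear likeness within pairs by principal component analysis. That the replicate numbers match its pairs remains an assumption, on which the pair differences and the blocked fit rest. Alternatives were the fit without the block, the methods' paired t-test, a variance trend, array weights, other filters, scalings and probe set rules, and each pair left out.

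The genes and lists were chosen with earlier results of these data known, the other pathway genes and markers from textbook knowledge. Named were the 10 genes, other pathway genes past the thresholds, other receptors, SMADs and Id4, E protein partners beside Tcf3, and the gene most similar to each (highest Pearson r). Tcf4, Tcf12, Hamp and Chrdl1 were named after their values were seen. Proteins were not compared here. Figures were drawn with matplotlib 3.10.9.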

Additional observations from a re-analysis of the deposited data

How the results depend on the processing

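That rats were paired came from the study's methods, and their match by replicate number was assumed. Without the replicate block 870 genes passed the thresholds against 718 with it, 0 of the 9 BMP genes as with it, and 1 of the 47 other pathway genes (Tcf3) against 2. The methods' paired t-test called 234 genes (119 higher and 115 lower; 637 at an unadjusted p under 0.05 and 0 after Benjamini-Hochberg adjustment), 0 of the 9 and 1 of the 47. Array weights called 2650, 4 and 14. Leaving out a pair gave 161 to 2497 genes, 0 to 4 of the 9 and 1 to 15 of the 47, highest without pair 3. Leaving out Con 3 alone with no block, chosen after seeing the data, gave 1731, 2 and 5. The variance trend, other filters, scalings and probe set rule called 687 to 845 genes, 0 BMP genes and 2 of the other pathway genes. Some small differences turned sign. Id3 was at 0.012 with array weights, and with a pair left out Bmp6 ranged from -0.0849 to 0.539, Bmp7 from -0.1175 to 0.1246, Id1 from -0.0371 to 0.2784 and Id3 from -0.2981 to 0.1779. Bmp2, Bmp4, Bmpr1a, Bmpr2 and Id2 kept their direction under every alternative run. The cause of these shifts was not tested. Bmp10, and Bmp2 under the strictest filter, had no value where the filter removed them. With 3 pairs of bulk tissue, an interval that includes 0 leaves both no difference and the other differences within it possible. Signals near 5 lie close to background.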
